A study of Saccharomyces cerevisiae with 24 samples.

Results

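XUTs, Xrn1-sensitive unstable transcripts, are long noncoding RNAs of budding yeast, *Saccharomyces cerevisiae*, and many of them run antisense to a gene. The antisense XUTs described here are the annotated XUTs that overlap, by 1 base or more on the opposite strand, a feature with a systematic Y name that is not a dubious open reading frame. The rule used positions alone and took 1214 of 1658 XUTs, in an annotation of 12289 features. Of these, 578 overlapped no other annotated feature on their own strand. Their counts can still hold reads of other RNAs, since 25 of the 578 have a near copy elsewhere in the genome. Reads assigned to the wrong strand would also add to them. Of the 1214, 1213 passed the filter on low counts, and of the 578, 577 did.

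XUTs are made by RNA polymerase II, capped and polyadenylated, and are exported to the cytoplasm. There they are known to be decapped by Dcp2 with its partner Dcp1 and then degraded from the 5′ end by the exonuclease Xrn1, in part through nonsense-mediated decay, which recognises an RNA on which translation stops far from its 3′ end. The Lsm1-7 ring binds the 3′ ends of shortened mRNAs and activates decapping.

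Poly(A) RNA was sequenced strand-specifically from 3 strains grown in rich YPD medium: dcp2-ideg, with an inducible degron for DCP2, lsm1-ideg, with an inducible degron for LSM1, and wt, which carries neither. Each strain was sampled 60 min after 100 µM IAA and 1 µM beta-oestradiol were added (T60) and without the addition (T0), with 4 libraries in each of the 6 groups. A degron removes a protein on cue, and the protein levels were not analysed here. The labels do not give the promoter that drives the system. The library names carry BY for wt, and the labels do not otherwise give the parent strain. Nothing in the labels tells whether replicates came from separate cultures. The p-values therefore cover only the spread among these libraries, and this spread may be technical.

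Library totals ran from 41.8 to 83.9 M counts. Values below are in CPM, counts scaled to a common library size, after TMM scaling, which sets library sizes so that most features do not differ. A change "beyond wt" is the log2 change from T0 to T60 in a degron strain minus that in wt. A feature is called at an adjusted p under 0.05 in edgeR's quasi-likelihood test over all 11776 features tested. The mRNA of DCP2 lay at 49.5 to 77.6 CPM in dcp2-ideg at T60 and at 83.3 to 146 CPM at T0. The mRNA of LSM1 lay at 84.2 to 92.4 CPM in lsm1-ideg at T60 and at 99.0 to 103 CPM at T0, against 147 to 173 CPM in all wt libraries. dcp2-ideg T0 replicate 4 stood farthest from its group, with a median absolute log2 deviation of 0.42 over features, and wt T60 replicate 3 had 0.26. Without both of these libraries the counts of called antisense XUTs stayed within 1.5 times of those with them in the comparisons of the degron responses.

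The first bases of 5 antisense XUTs show where the first start codon and its stop lie in such an RNA. Chosen were the XUT opposite PDR3, strong risers opposite a transporter, a meiotic and a metabolic gene, and the largest fall with no same-strand overlap. The XUT opposite PDR3 is among the most abundant with no same-strand overlap. Each line holds 160 bases from the annotated 5′ end, 5′ to 3′ as DNA letters of the RNA strand, read from the R64 RefSeq genome, with capitals for the first ATG through its in-frame stop codon.
XUT_2R-85, opposite PDR3, chrII:220891-221050, minus strand: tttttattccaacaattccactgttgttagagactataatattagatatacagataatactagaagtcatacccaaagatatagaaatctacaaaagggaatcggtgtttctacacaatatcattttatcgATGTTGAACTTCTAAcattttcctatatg
XUT_11R-274, opposite GEX2, chrXI:662208-662367, minus strand: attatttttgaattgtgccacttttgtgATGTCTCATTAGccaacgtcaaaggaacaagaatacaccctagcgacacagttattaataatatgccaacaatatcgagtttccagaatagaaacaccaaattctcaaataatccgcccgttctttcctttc
XUT_8F-22, opposite SPO11, chrVIII:62970-63129, plus strand: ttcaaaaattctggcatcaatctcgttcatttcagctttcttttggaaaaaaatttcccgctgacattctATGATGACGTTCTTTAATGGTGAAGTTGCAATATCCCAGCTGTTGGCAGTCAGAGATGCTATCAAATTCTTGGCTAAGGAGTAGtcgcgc
XUT_13F-261, opposite ALD2, chrXIII:601354-601513, plus strand: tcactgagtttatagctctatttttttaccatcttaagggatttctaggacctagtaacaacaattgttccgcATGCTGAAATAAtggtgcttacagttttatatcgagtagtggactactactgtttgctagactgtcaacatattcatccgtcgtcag
XUT_13R-177, opposite FET3, chrXIII:390608-390767, minus strand: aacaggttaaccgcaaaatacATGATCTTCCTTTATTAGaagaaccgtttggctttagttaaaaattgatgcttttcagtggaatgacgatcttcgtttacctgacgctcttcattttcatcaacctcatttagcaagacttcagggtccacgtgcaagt
In these 5 RNAs the first open reading frame had 3 to 27 codons before its stop, and 594 to 2675 bases followed the stop. The first frame of the XUT opposite FET3, the fall among the 5, had 5 codons. Whether frame length is linked to the change of a XUT was not tested.

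Over all 1214 antisense XUTs the first ATG stood at a median position of 36, and the first frame had a median of 13 codons. In 1195 of them (98.4%) it was shorter than 100 codons. A median of 600 bases lay between the first stop and the annotated 3′ end. This distance was 994 bases in the XUTs that rose in dcp2-ideg beyond wt and 462 bases in those that were not called, whose median lengths were 1100 and 573 bases. The annotated ends are those of the table and were not checked against the reads.

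The antisense XUTs had a median length of 709 bases (252 to 5195) and a median of 556 bases opposite the gene, which was 93.4% of the XUT and 41.0% of the gene. Of the 1214, 500 lay inside the gene, 381 reached past its 5′ end, 244 past its 3′ end and 89 covered it whole. The opposite feature was an ordinary gene in 1201 cases and a transposon region in 8, with 3 pseudogenes, 1 blocked reading frame and 1 transposon gene. There were 1108 distinct opposite features, so some XUTs share one and are not independent. A near copy elsewhere in the genome, at 95% identity over 50% or more of the length, exists for 27 members, and their counts are uncertain because the handling of reads with several matches is not given in the sources used here.

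Short motifs near the 5′ end were searched on the RNA strand only, since the proteins that bind them read RNA. TCTT is the letters of a Nab3 site, and GTAG and GTAA, which share their first letters, are those of Nrd1 sites. Both proteins end the transcription of cryptic unstable transcripts (CUTs), which the nuclear exosome then degrades. Within the first 200 bases, TCTT occurred in 75.9% of antisense XUTs, against 88.4% of CUTs, 61.1% of protein-coding features and 68.2% of all features of 1 segment. GTAG occurred in 48.5% of antisense XUTs, against 53.2% of CUTs, 35.9% of protein-coding features and 41.98% of all features. GTAA occurred in 61.6% of antisense XUTs, against 70.3% of CUTs, 55.2% of protein-coding features and 58.0% of all features.

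After 60 min, antisense XUTs took a larger share of the library in dcp2-ideg than in any other group. The share was 1.23 ± 0.0717% of all counts in dcp2-ideg at T60, against 0.415 ± 0.0213% at T0 (SD, n = 4). In lsm1-ideg it was 0.4998 ± 0.0145% at T60 and 0.403 ± 0.0171% at T0. In wt it was 0.436 ± 0.0173% at T60 and 0.416 ± 0.00921% at T0. The 4 dcp2-ideg T60 libraries lay between 1.15% and 1.30%, above all 20 others. The lsm1-ideg T60 libraries, at 0.484% to 0.519%, also lay above their T0 libraries, at 0.383% to 0.425%, while the wt T60 libraries, at 0.420% to 0.460%, overlapped the wt T0 libraries, at 0.403% to 0.425%.

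**Figure D1:**
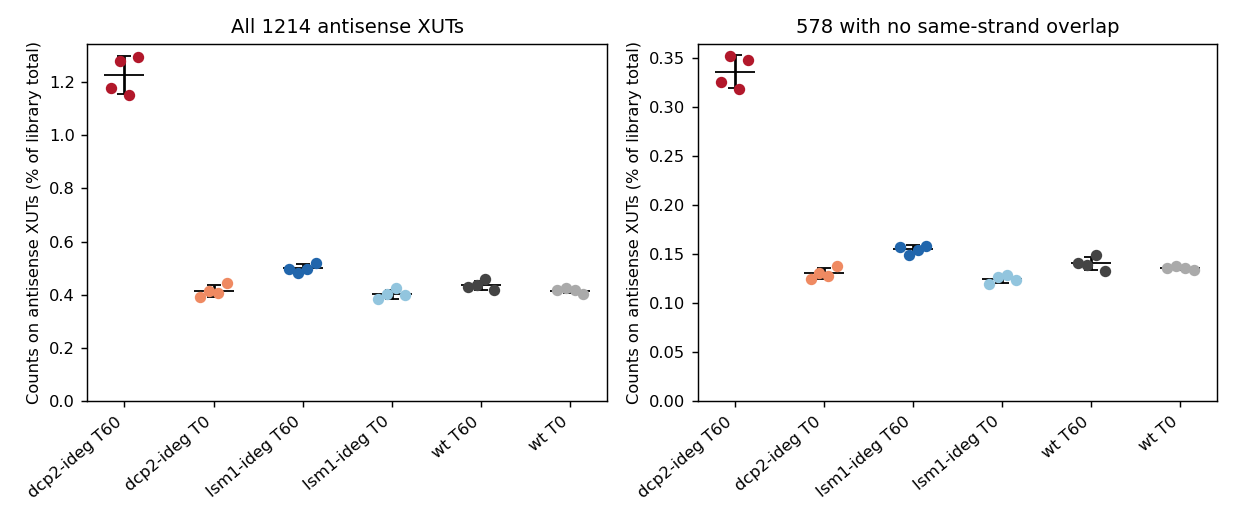
Share of each library's counts on antisense XUTs, in percent of the library total, for all 1214 (left) and for the 578 with no same-strand overlap (right). Points are libraries, bars the mean and SD of 4. The dcp2-ideg T60 libraries stand apart at 1.15% to 1.30% on the left, and their mean on the right is 0.336% against 0.130% at T0.

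The typical antisense XUT is a scarce RNA. Its median level was 3.01 CPM in dcp2-ideg at T60 and 1.83 CPM at T0. The median was 1.94 CPM in lsm1-ideg at T60 and 1.77 CPM at T0, and 1.85 CPM in wt at T60 and 1.82 CPM at T0. Per kilobase, 203 XUTs stood above their opposite gene in dcp2-ideg at T60, and 154 did at T0. Because the whole dcp2-ideg T60 transcriptome differed, the scale matters here: without TMM the median change of all features beyond wt was 0.57, against 0.073 with it.

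Antisense XUTs rose in the dcp2-ideg strain far more often than they fell. Beyond wt, 447 of 1213 rose and 18 fell, where 34.4% of all 11776 features tested were called, 18.5% higher and 15.9% lower. The median log2 change was 0.82, against 0.073 over all features. Among the XUTs with no same-strand overlap, 153 of 577 rose and 11 fell, with a median of 0.66. For comparison, 220 of the 444 XUTs not opposite such a gene rose and 3 fell, with a median of 1.29, a difference from the antisense XUTs that was not tested. The 1106 opposite genes tested divided into 223 higher and 194 lower, with a median of 0.047. Under total count scaling they divided into 510 higher and 56 lower, where 4461 of all 11776 features were higher and 490 lower.

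All 4 dcp2-ideg T60 libraries lay above all 4 T0 libraries in 595 of 1213 antisense XUTs, and below them in 20, where 24.9% and 16.7% of all features did so. Scaling by total counts gave 707 higher and 4 lower, with a median of 1.32, where 4461 of all 11776 features were higher and 490 lower.

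In lsm1-ideg 1 antisense XUT rose beyond wt and none fell, where 0.187% of all features were called higher and 0.0255% lower. The median change of antisense XUTs was 0.16, against 0.026 over all features and -0.016 over the opposite genes. Of the 1213 antisense XUTs, 95 had an unadjusted p under 0.05. DESeq2 called 7 higher and 1 lower, where 61 and 29 of 11775 features were called. Leaving out 1 library in turn gave 0 to 3 higher. With the replicate number as a block within each strain 6 were higher, where 80 of 11776 features were. Both responses are set against the same wt libraries. The dcp2-ideg response exceeded the lsm1-ideg response in 369 antisense XUTs and fell short of it in 22, where 15.2% and 13.3% of all features were called, and the median difference was 0.64. With the block within strains 431 exceeded it and 34 fell short, where 2288 and 2301 of 11776 features did. In wt, no antisense XUT was called between T60 and T0 by edgeR, where 0.0% of all features were called, and 66 had an unadjusted p under 0.05. DESeq2 called 0 of them.

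**Figure D2:**
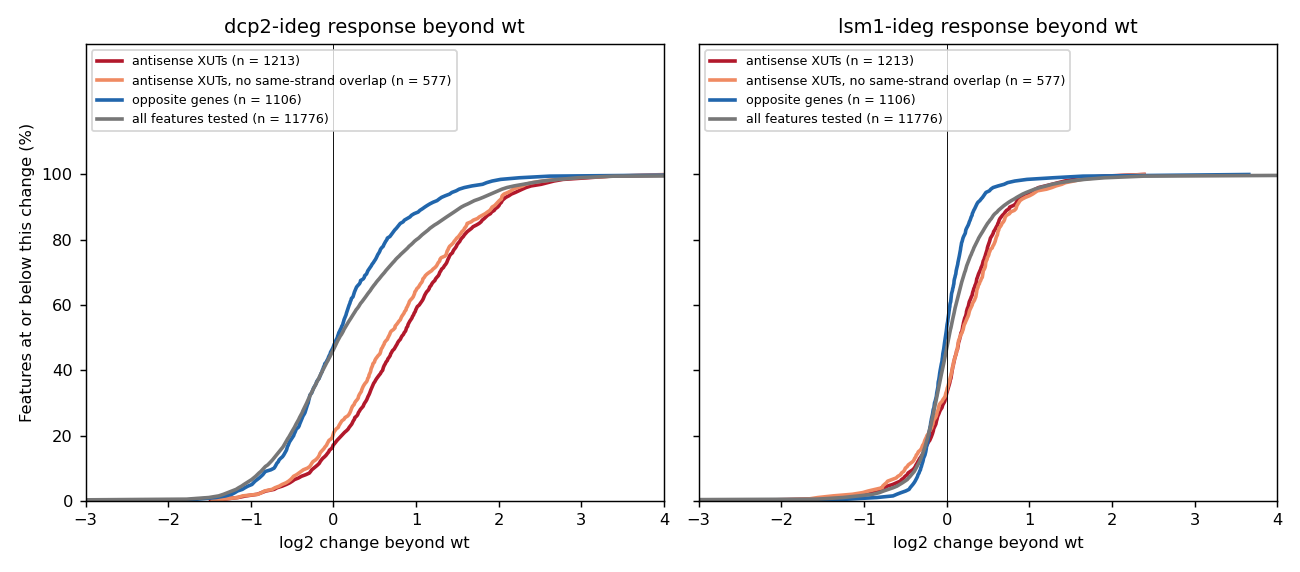
Cumulative share of features, in percent, at or below each log2 change beyond wt, in dcp2-ideg (left) and lsm1-ideg (right). In dcp2-ideg the antisense XUTs, with a median of 0.82, lie to the right of their opposite genes, with a median of 0.047. In lsm1-ideg these medians are 0.16 and -0.016, against 0.026 over all features.

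Before any addition few antisense XUTs were called between strains. Between dcp2-ideg T0 and wt T0, 4 antisense XUTs were higher and 3 lower, where 0.586% and 0.238% of all features were called. Here 127 of 1213 had an unadjusted edgeR p under 0.05, and DESeq2 called 7 higher and 8 lower. Between lsm1-ideg T0 and wt T0, 3 were higher and 2 lower, where 0.195% and 0.153% of all features were called. In that comparison 94 had an unadjusted edgeR p under 0.05. Leaving out 1 library in turn gave 1 to 3 higher in each degron strain, with 1 lower in dcp2-ideg without wt T0 replicate 4 and 1 higher in lsm1-ideg without wt T0 replicate 4 or lsm1-ideg T0 replicate 3. XUT_9F-4, opposite CSS1, was lower in both degron strains against the same wt T0 libraries, by -0.997 ± 0.30 in dcp2-ideg (SE, edgeR adjusted p = 0.0186) and -1.28 ± 0.30 in lsm1-ideg (adjusted p = 0.00276). The dcp2-ideg call ended without wt T0 replicate 4 (adjusted p = 0.118, over a range of 0.000796 to 0.118) or dcp2-ideg T0 replicate 2 (0.0533). XUT_6R-1, opposite YFL067W, was higher in both, but it has 13 near copies.

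Of the 5 most abundant antisense XUTs with no same-strand overlap, 4 were called higher in dcp2-ideg beyond wt, where 18.5% of all features were. Abundance here is the mean count per kb over all libraries, dcp2-ideg T60 included, so a rise there adds to it. XUT_2R-85 runs opposite PDR3, which encodes a transcription factor of multidrug resistance, and covers 2271 bases of it. It had 136, 122, 127 and 88.5 CPM in dcp2-ideg at T60, against 35.8, 39.8, 37.2 and 23.1 CPM at T0. It had 50.8, 52.7, 51.7 and 44.2 CPM in wt at T60, against 50.05, 53.9, 49.6 and 68.3 CPM at T0. The dcp2-ideg T60 libraries lay above all others, the wt groups overlapped, and the change beyond wt was 1.96 ± 0.21 (SE, edgeR adjusted p = 1.34e-07). At T0 it was lower in dcp2-ideg than in wt by -0.71 (adjusted p = 0.0116, and 0.0916 without wt T0 replicate 4, over a range of 0.000869 to 0.0916). PDR3 itself changed by 0.63 beyond wt (adjusted p = 0.224). XUT_12R-299 covers GAS2, a gene of spore wall assembly, and had 198, 186, 172 and 161 CPM in dcp2-ideg at T60, against 161, 140, 135 and 157 CPM at T0. Its change beyond wt was 0.23 ± 0.15 with TMM scaling (adjusted p = 0.226). It was called higher under total count scaling, at 0.74 (0.00017), and with TMM factors from protein-coding genes, at 0.44 (0.0152), in a range of 0.00017 to 0.415 over 32 alternatives.

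The other abundant members were XUT_4R-336, which rose by 2.34 ± 0.35 beyond wt (edgeR adjusted p = 1.53e-05), XUT_9R-84, which rose by 1.60 ± 0.18 (4.02e-07), and XUT_9F-4, which rose by 0.93 ± 0.30 (0.019). That last call ended without dcp2-ideg T60 replicate 1 (0.0503) or wt T0 replicate 4 (0.0522), in a range of 0.000299 to 0.0522. XUT_4R-336 has 2 near copies and lies opposite YDR170W-A. XUT_9R-84 has 1 and lies opposite the Ty3 element YILWTy3-1.

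The 10 largest called rises with no same-strand overlap ran from 2.69 to 4.03 on the log2 scale. They were taken among XUTs whose T60 and T0 libraries in dcp2-ideg did not overlap. Several were nearly absent at T0. XUT_4F-34, opposite FMP45, had 1.45, 0.756, 1.02 and 0.956 CPM in dcp2-ideg at T60, against 0.110, 0.0376, 0.141 and 0.209 CPM at T0, a change beyond wt of 4.03 ± 0.86 (SE, edgeR adjusted p = 0.000723). XUT_2R-264, opposite COS111, had 7.82, 10.5, 6.68 and 9.28 CPM in dcp2-ideg at T60, against 0.974, 0.883, 0.845 and 0.752 CPM at T0. The lsm1-ideg libraries held 2.10, 2.19, 2.99 and 2.51 CPM at T60, against 1.99, 1.30, 1.90 and 0.728 CPM at T0. In lsm1-ideg the lowest T60 value, 2.10 CPM, lay just above the highest T0 value, 1.99 CPM. How many of all features were parted so in lsm1-ideg was not counted. The change of XUT_2R-264 beyond wt was 3.34 ± 0.36 in dcp2-ideg (adjusted p = 1.85e-07) and 0.76 ± 0.36 in lsm1-ideg (0.629, not called). COS111 changed by -0.06 in dcp2-ideg (0.883).

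XUT_11R-274 lies inside GEX2, which encodes a glutathione exchanger. It had 24.7, 23.5, 22.2 and 24.8 CPM in dcp2-ideg at T60, against 4.37, 2.93, 2.80 and 3.93 CPM at T0, a change beyond wt of 3.05 ± 0.26 (SE, edgeR adjusted p = 9.93e-09). GEX2 rose as well, by 1.49 (adjusted p = 9.41e-05). This XUT has 1 near copy, so its counts are uncertain.

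XUT_13F-261 reaches past the 3′ end of ALD2, an aldehyde dehydrogenase gene. It had 3.47, 4.35, 6.13 and 5.27 CPM in dcp2-ideg at T60, against 0.294, 0.732, 1.20 and 0.710 CPM at T0. It rose by 2.71 ± 0.51 (SE, edgeR adjusted p = 0.000173) and ALD2 by 0.97 (1.03e-05). XUT_5F-151, opposite PTP3, a protein tyrosine phosphatase that acts on MAP kinases, rose by 3.35 ± 0.61 (0.000126). XUT_10R-93, inside BCK1, the kinase that starts the cell wall integrity MAP kinase cascade, rose by 2.71 ± 0.83 (0.0124). XUT_7R-165, inside PKP2, a mitochondrial protein kinase gene, rose by 2.83 ± 0.85 (0.0113), and XUT_4F-293, inside SHU2, a gene of recombinational repair, by 2.69 ± 0.73 (0.00571). XUT_15F-9, opposite CSS3, and XUT_8F-32, opposite YHL008C, rose by 3.81 ± 1.10 and 3.66 ± 0.90, and share only 46 and 43 bases with the gene.

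Of the 11 falls with no same-strand overlap, the 5 largest among those whose T60 and T0 libraries in dcp2-ideg did not overlap are described here. In 4 of these the opposite gene was called lower too. XUT_13R-177 lies inside FET3, the ferroxidase of high-affinity iron uptake. It had 3.22, 6.77, 3.29 and 3.18 CPM in dcp2-ideg at T60, against 12.1, 16.5, 13.6 and 12.7 CPM at T0, and changed by -1.47 ± 0.35 beyond wt (SE, edgeR adjusted p = 0.00181). FET3 had 180, 197, 172 and 145 CPM in dcp2-ideg at T60, against 678, 876, 876 and 613 CPM at T0, a change beyond wt of -1.79. Per base the XUT held 2.41% of the count of FET3.

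XUT_7R-276 (ERG25, a sterol biosynthesis gene) changed by -1.33, XUT_16F-363 (BET2, a prenyltransferase subunit) by -1.33, XUT_9R-104 (EFM4, a methyltransferase gene) by -1.11 and XUT_15F-42 (MDH2, cytosolic malate dehydrogenase) by -1.09. Under total count scaling these 4 calls ended, with adjusted p of 0.104, 0.127, 0.171 and 0.256, and that of XUT_15F-42 ended in 15 of 32 alternatives (0.00952 to 0.256). Over their alternatives the adjusted p of the first 3 ran from 0.00197 to 0.104, from 0.00617 to 0.127 and from 0.00127 to 0.171. The XUT of BET2 also lost its call without wt T60 replicate 2 (0.0582), and that of ERG25 without both dcp2-ideg T0 replicate 4 and wt T60 replicate 3 (0.0603).

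XUT_4R-365, inside AHA1, which encodes an activator of the Hsp90 chaperone, was the XUT called in lsm1-ideg. It had 7.58, 6.59, 6.504 and 5.85 CPM in lsm1-ideg at T60, against 3.51, 2.81, 3.02 and 2.37 CPM at T0, and the groups did not overlap. It had 3.99, 3.15, 2.71 and 2.22 CPM in wt at T60, against 3.61, 2.32, 3.91 and 3.50 CPM at T0. The change beyond wt was 1.33 ± 0.28 (SE, edgeR adjusted p = 0.0463), and the call ended in 18 of 32 alternatives, each with at least 1 library left out (adjusted p 0.00202 to 0.111 over all 32). AHA1 changed by 1.28 and was called higher, and the XUT held 3.36% of its count per base.

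**Figure D3:**
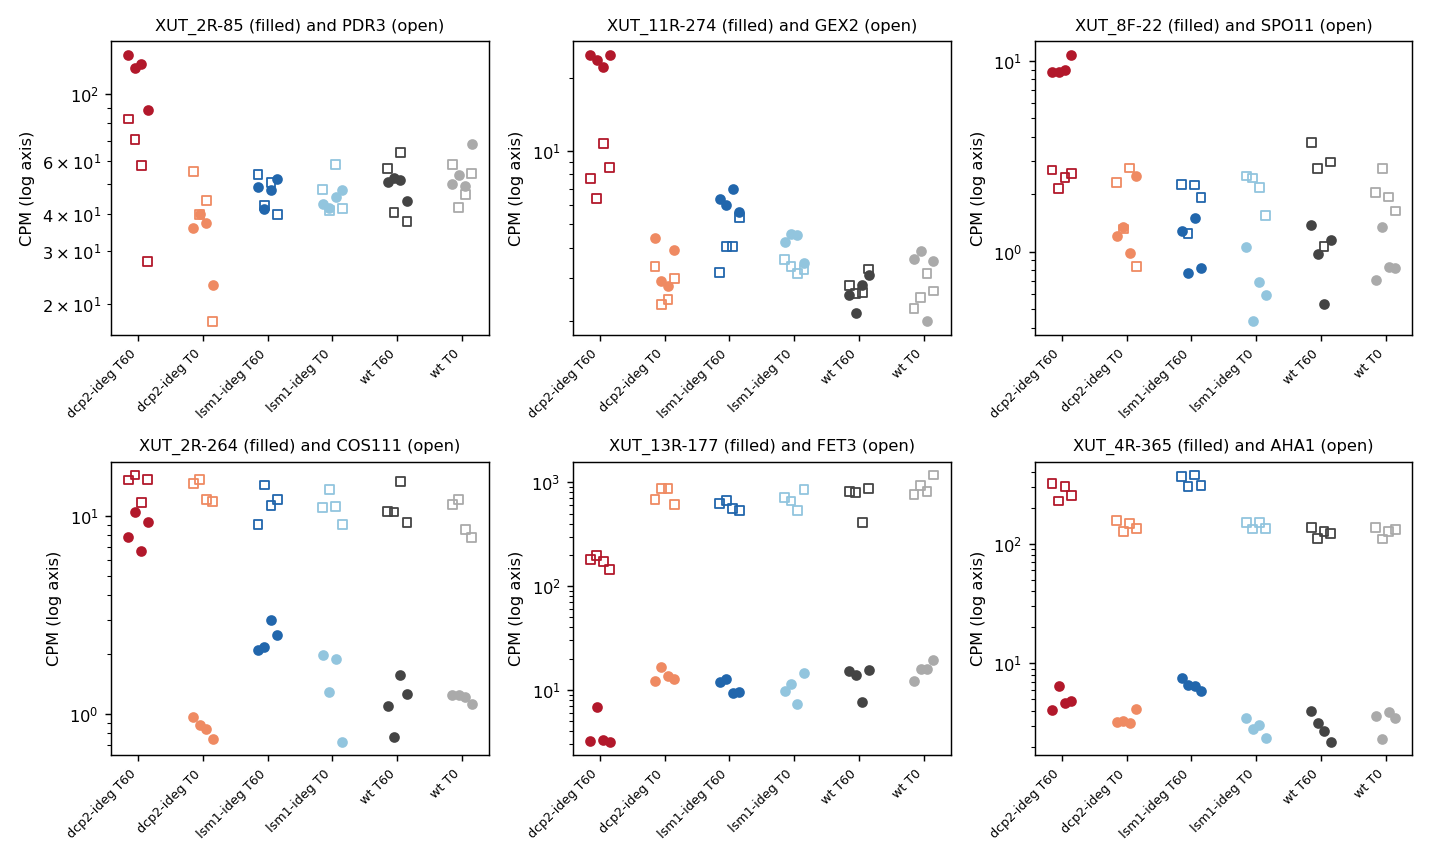
CPM (log axis) of 6 XUTs, as filled circles, and of the opposite gene, as open squares, in each of 24 libraries by group. XUT_2R-85, XUT_11R-274, XUT_8F-22 and XUT_2R-264 are highest in dcp2-ideg at T60, XUT_13R-177 and FET3 are both lower in dcp2-ideg at T60 than at T0, and XUT_4R-365 is highest in lsm1-ideg at T60.

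XUTs under busy genes were set against the gene itself, since reads assigned to the wrong strand would add to their counts. There are 47 XUTs that share their strand with nothing and lie wholly opposite 1 gene of at least 100 CPM. Their density of counts along the RNA had a median of 3.72% of the gene's density, and 46 of them were under 10%. The median was 4.66% in dcp2-ideg at T60 and 3.82% at T0, 3.43% in lsm1-ideg at T60 and 2.72% at T0, and 3.34% in wt at T60 and 3.19% at T0. FET3 and AHA1, above, have XUTs at such a share. The part of wrong-strand reads in their changes was not tested.

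The calls also varied with density, a difference that was not tested. Of all features, 18.5% rose and 15.9% fell in dcp2-ideg beyond wt. Of XUTs with at least 10% of the gene's count per base in wt, 313 of 621 rose and 3 fell, with a median of 1.05. Under 10%, 134 of 592 (22.6%) rose, a share near that of all features, and 15 fell, with a median of 0.55. By the level of the opposite gene, the XUTs with no same-strand overlap rose in 63, 44, 26 and 20 cases and fell in 0, 0, 1 and 10 cases, in 4 equal groups from the lowest to the highest gene level, each of 144 or 145 XUTs.

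The counts also varied with position, a difference that was not tested. With TMM scaling, 18.5% of all features rose and 15.9% fell. Of the XUTs that cover the gene 63 of 89 rose and 0 fell, of those past the 3′ end 122 of 244 rose and 3 fell, of those past the 5′ end 144 of 380 rose and 3 fell, and of those inside the gene 118 of 500 rose and 12 fell. The median changes were 1.12, 1.00, 0.83 and 0.66 in that order. Under total count scaling 79, 170, 227 and 231 rose and 0, 1, 0 and 3 fell in the same order. Of all 11776 features, 4461 then rose and 490 fell. With TMM scaling and no same-strand overlap, 4 of 10, 37 of 80, 55 of 180 and 57 of 307 were higher in the same order. In 4 equal groups of XUTs with no same-strand overlap, from the shortest to the longest, 17, 30, 37 and 69 rose, also with TMM scaling. Longer XUTs also carry more counts, and the part of counting precision was not tested. At the edge of the rule, 19 of 31 members with under 50 opposite bases rose, and so did 11 of 32 XUTs just outside it with a gene within 50 bases.

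**Figure D4:**
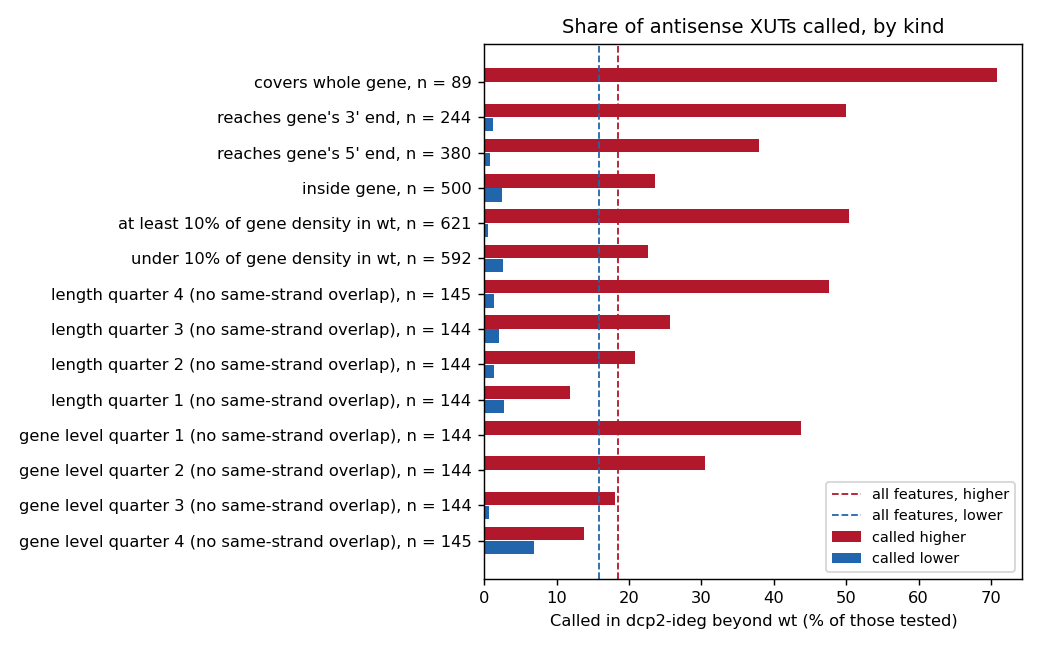
Share of antisense XUTs called higher or lower in dcp2-ideg beyond wt, in percent of those tested, by position, density in wt, length and level of the opposite gene. Dashed lines give the share of all features, 18.5% higher and 15.9% lower. The XUTs that cover the gene reach 70.8% and those inside it 23.6%.

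XUTs and their opposite genes changed in the same direction in some pairs and in opposite directions in others. Of 1211 pairs tested, a risen XUT stood opposite a risen gene in 116, a gene not called in 275 and a fallen gene in 54. A fallen XUT stood opposite a fallen gene in 14 pairs, a gene not called in 4 and a risen gene in 0. Of the 1106 opposite genes tested, each counted once, 223 rose and 194 fell. Whether the pairs depart from these shares was not tested. In pairs whose XUT has no same-strand overlap the risen XUTs divided into 44, 87 and 21. Spearman's rho between the changes was 0.30 over 1211 pairs and 0.27 over the 576 with no same-strand overlap, values in which both strands share the libraries, the scaling and any wrong-strand reads.

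**Figure D5:**
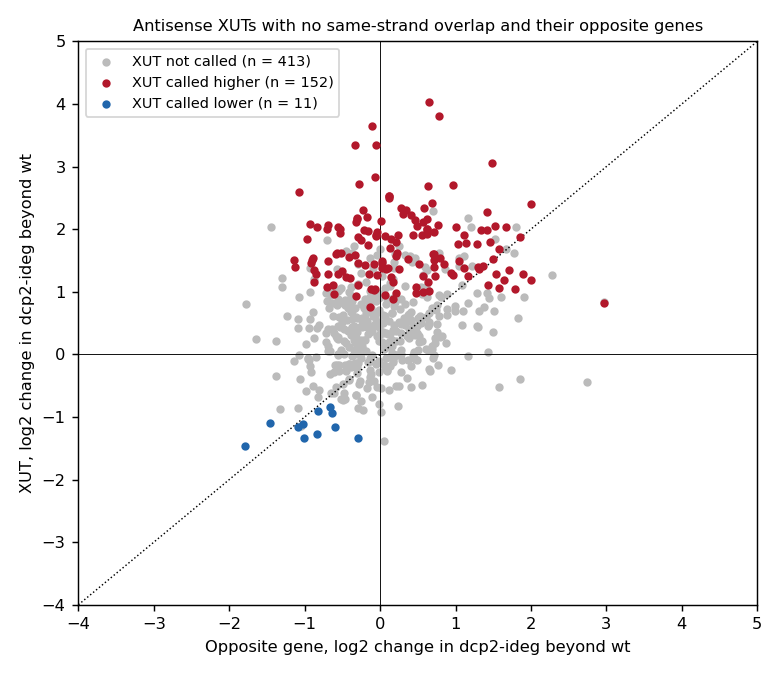
Log2 change in dcp2-ideg beyond wt of 576 XUTs with no same-strand overlap, against that of the opposite gene. The dotted line marks equal change. Of the 152 risen XUTs, 44 lie over risen and 21 over fallen genes, and the 11 fallen ones all lie over genes with a change below 0.

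The ratio of XUT to gene was tested with limma on log2 CPM with a prior count of 2. It rose in 319 of 1211 pairs and fell in 18, where 19.8% of 3100 antisense pairs of noncoding transcript and gene were called higher and 1.48% lower, with a median change of 0.69. The 18 falls became 11 without wt T60 replicate 2 or wt T0 replicate 3, and 28 with the block within strains. The largest called rises with no same-strand overlap were XUT_10F-82 against URA2, the first enzyme of pyrimidine synthesis, at 3.68 ± 0.48 (SE, limma adjusted p = 4e-06), XUT_4R-374 against the histone gene HTA1 at 3.65 ± 0.97 (0.00675) and XUT_5F-151 against PTP3 at 3.63 ± 0.55 (2.03e-05). URA2 changed by -1.07 and HTA1 by -1.45. The largest falls were those of XUT_9F-185 against GAT4 at -2.64 (0.0421, lost in 10 of 28 alternatives, 0.0137 to 0.123), XUT_7F-362 against GTO1 at -2.33 (0.00587) and XUT_1F-11 against FLO9, a flocculin gene, at -1.996 (0.00672). In these 3 pairs the gene rose, by 2.74, 1.86 and 1.58, and the XUT was not called. XUT_1F-11 has 3 near copies.

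Several pairs are models of antisense regulation in yeast. XUT_8F-22 runs opposite SPO11, whose product makes the DNA breaks of meiosis. It had 8.73, 8.78, 8.97 and 10.8 CPM in dcp2-ideg at T60, against 1.21, 1.35, 0.986 and 2.49 CPM at T0, and rose by 2.53 ± 0.45 (SE, edgeR adjusted p = 0.00011). SPO11 had 2.68, 2.13, 2.44 and 2.56 CPM in dcp2-ideg at T60, against 2.31, 1.31, 2.75 and 0.836 CPM at T0, and its groups overlapped. XUT_5R-90-m runs opposite TIR1, a cell wall mannoprotein gene, and had 18.4, 19.3, 16.9 and 14.8 CPM in dcp2-ideg at T60, against 2.63, 2.76, 2.87 and 2.30 CPM at T0. It rose by 2.61 ± 0.35 (2.92e-06), whereas TIR1 changed by -1.19 (0.0218). That call of TIR1 ended under total count scaling (-0.70, 0.154) and with TMM factors from protein-coding genes (-0.98, 0.0524), and held with DESeq2 (-1.25, 0.00547). XUT_7R-20, opposite the meiotic gene ZIP2, rose by 2.20 (5.36e-06), and ZIP2 rose by 1.81 (0.00233).

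Other models moved less. XUT_4R-506, opposite ARO10, a decarboxylase gene, changed by 0.33 (edgeR adjusted p = 0.273), and was called higher under total count scaling, at 0.82 (0.0051, in a range of 0.0051 to 0.498), while ARO10 rose by 2.06 (1.05e-08), and the ratio fell by 1.74 on the log2 scale. XUT_13R-73, opposite GAL80, the repressor of galactose genes, rose by 1.03 (0.00359) and XUT_10R-276, opposite HMS2, by 0.81 (0.0193). The HMS2 call ended without dcp2-ideg T60 replicate 3 (0.0536) or wt T60 replicate 4 (0.0567), in a range of 0.000307 to 0.0567. The 3 XUTs opposite PHO84, the phosphate transporter with a well-known antisense RNA, changed by -0.87, -0.69 and 0.50 and were not called by edgeR with TMM scaling (adjusted p = 0.0900, 0.150 and 0.575). The first, XUT_13F-10, was called lower by DESeq2 (-0.93, 0.0475), with a replicate block (-0.92, 0.0378), with the block within strains (-0.98, 0.0228), without dcp2-ideg T60 replicate 2 (-1.32, 0.00447) and without wt T60 replicate 4 (-1.05, 0.0432), in a range of 0.00447 to 0.445. XUT_13F-12 was called lower without dcp2-ideg T60 replicate 2 (-1.03, 0.0205) and with the block within strains (-0.78, 0.0471), in a range of 0.0205 to 0.685. Those opposite GAL1 (0.46), SUR7 (0.77) and KCS1 (1.16) were not called with TMM scaling, and under total count scaling they were called higher, at 0.95 (0.0276), 1.29 (0.0324) and 1.65 (0.0299). The XUT of SUR7 was also called without both dcp2-ideg T0 replicate 4 and wt T60 replicate 3 (1.31, 0.0279). Over all alternatives these 3 ran from 0.0276 to 0.755, from 0.0279 to 0.419 and from 0.0299 to 0.338. XUT_13F-10, XUT_13F-12 and XUT_13F-14, the PHO84 group, and those of GAL1, SUR7, HMS2, ARO10, TIR1 and ZIP2 share their strand with another feature.

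Opposite genes of meiosis 15 of 21 XUTs rose and 0 fell, with a median of 1.54, where 447 of all 1213 antisense XUTs and 18.5% of all features rose and 15.9% of all features fell. Of the genes themselves 7 of 21 rose and 1 fell. Opposite genes for the use of other carbon sources 19 of 33 XUTs rose and 1 fell, with a median of 1.19, and opposite stress genes 5 of 10 rose and 0 fell. Opposite cell wall genes 9 of 23 rose and 0 fell, and opposite genes of phosphate, iron and nitrogen supply 7 of 28 rose and 2 fell. Opposite cell cycle genes 2 of 8 rose, and opposite glycolysis genes 2 of 3. Under total count scaling 19 of 21 rose opposite meiosis genes and 30 of 33 opposite genes of carbon use. Of all antisense XUTs 707 of 1213 then rose, and of all features 4461 of 11776. The medians of the 7 lists stayed above 0 in all 4 scalings run. No list was tested against the rest. Meiosis genes and many genes of carbon use are little expressed in rich medium, and the part of gene level in these counts was not tested.

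The genes of the machinery that makes and removes such RNAs lay mostly on the lower side with TMM scaling. The sign of their median turned under total count scaling, but in both scalings it lay below the median of all features. Of 47 genes of decapping, Lsm1-7, Xrn1, nonsense-mediated decay, the exosome and chromatin surveillance, 1 was called higher in dcp2-ideg beyond wt and 17 lower, with a median of -0.32, where 18.5% of all features were higher and 15.9% lower. Under total count scaling 11 were higher and 1 lower, with a median of 0.16. Of all 11776 features 4461 were then higher and 490 lower, and their median had moved from 0.073 to 0.57. MTR4, the helicase of the nuclear exosome, kept its fall in both, at -1.06 ± 0.12 (SE, edgeR adjusted p = 5.84e-07) with TMM and -0.56 (0.000595) with total counts. DCP1 changed by -0.92 ± 0.21 (0.00127) and DCP2 by -0.88 ± 0.20 (0.00136), and under total counts by -0.41 (0.154) and -0.40 (0.0941). DBP2, an RNA helicase gene, changed by -1.02 ± 0.26 (0.00344), PAP2, the poly(A) polymerase of nuclear surveillance, by -0.69 ± 0.15 (0.000964) and SKI3, of the cytoplasmic Ski complex, by -0.51 ± 0.13 (0.0026). These 3 were not called under total counts (0.111, 0.266 and 0.972). EDC2, an enhancer of decapping, rose by 0.56 ± 0.21 (0.0419). DESeq2 did not call it (0.51, 0.0627), while total count scaling did (1.07, 0.00052). In lsm1-ideg none of the 47 was called by edgeR or DESeq2, and 4 had an unadjusted edgeR p under 0.05.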

How the data were processed

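The authors deposited a table of whole-number read counts per feature in 24 libraries and the annotation with the position and type of each feature. The build sacCer3 and the tools STAR and featureCounts are named in the submitters' processing notes. Their versions, the strand setting and the handling of reads that match several features or places are not given in the sources used here. Per the labels' protocols the kit was poly(A)-selected and marked the strand with dUTP.

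Overlaps were computed from the deposited positions. Where several genes lay opposite a XUT, the one with the longest overlap was paired with it. Of the gene features found in the R64 reference, 93.2% contained the reference gene. Counts were fitted in edgeR 4.0.16 (R 4.3.3, TMM, filterByExpr, quasi-likelihood test, 1 mean per group over all 24 libraries, Benjamini-Hochberg over 11776 features), and 513 features were left out as too low. The XUT to gene ratio was fitted with limma 3.58.1 on log2 CPM with a mean-variance trend. DESeq2 1.42.0 was an alternative. Same-numbered T60 and T0 libraries deviated together, with a correlation over 0.1, in 4 of 4 pairs of dcp2-ideg, 3 of 4 of lsm1-ideg and 0 of 4 of wt, so the number was also fitted as a block within each strain. The labels do not say what a number stands for. Near copies were sought with blastn 2.17.0. Only the main edgeR fit and the main ratio fit were run on simulated counts, for the dcp2-ideg response beyond wt. In that simulation only some antisense XUTs changed, unlike in these data. The alternatives were not simulated.

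The named XUTs include the 10 largest called rises and 5 largest called falls in dcp2-ideg beyond wt. These have no same-strand overlap and no overlap between dcp2-ideg T60 and T0 libraries. Also named are up to 3 called rises and falls in each other comparison and 3 ratio rises and falls, all with no same-strand overlap. The 5 most abundant with no same-strand overlap, by mean count per kb over all libraries, are named too. XUTs opposite genes known for antisense regulation were named with or without such overlap. The members and lists were chosen with earlier results of these data known. A call needs an adjusted p under 0.05. Depth was 41.8 to 83.9 M counts per library, and members of few counts are the less precise. A larger share of the library and more RNA per cell cannot be told apart here.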

Additional observations from a re-analysis of the deposited data

Results flagged for a closer look

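In 17 of 288 groups of 4 libraries (5.90%), 1 library of a named XUT stood far from the other 3 by Dixon's criterion, where chance gives about 5%. In dcp2-ideg T60 XUT_13R-177 had 6.77 CPM in replicate 2 against 3.18 to 3.29 in the others, XUT_13R-73 had 7.39 CPM in replicate 4 against 6.26 to 6.41 in the others, XUT_6R-1 had 5.07 CPM in replicate 4 against 10.2 to 10.9 in the others, XUT_8F-22 had 10.8 CPM in replicate 4 against 8.73 to 8.97 in the others, XUT_9R-104 had 1.84 CPM in replicate 4 against 1.22 to 1.29 in the others. In lsm1-ideg T60 XUT_4R-336 had 16.3 CPM in replicate 1 against 11.5 to 11.7 in the others. In wt T60 XUT_12R-299 had 138 CPM in replicate 1 against 113 to 116 in the others, XUT_4R-506 had 22.8 CPM in replicate 3 against 15.3 to 16.5 in the others, XUT_7R-20 had 5.81 CPM in replicate 3 against 3.43 to 3.61 in the others, XUT_7R-276 had 4.07 CPM in replicate 3 against 1.9 to 2.18 in the others. In dcp2-ideg T0 XUT_4R-365 had 4.14 CPM in replicate 4 against 3.15 to 3.27 in the others, XUT_9R-104 had 3.55 CPM in replicate 4 against 2.35 to 2.53 in the others. In lsm1-ideg T0 XUT_13F-10 had 11.3 CPM in replicate 2 against 7.82 to 8.13 in the others, XUT_15R-7 had 5.72 CPM in replicate 3 against 4.58 to 4.67 in the others. In wt T0 XUT_13F-10 had 5.19 CPM in replicate 1 against 8.47 to 8.79 in the others, XUT_13F-12 had 4.63 CPM in replicate 1 against 6.77 to 7.04 in the others, XUT_13F-14 had 2.11 CPM in replicate 3 against 0.593 to 0.788 in the others. 

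In all, 24 of the 46 named XUTs were called in the edgeR test of the dcp2-ideg response minus the lsm1-ideg response. Of all features tested, 28.5% were called there. Many of the 46 were named for a call in this comparison or in dcp2-ideg beyond wt, so their count follows in part from the choice. The log2 difference was 3.68 for XUT_12R-31, 3.37 for XUT_11R-7, 3.22 for XUT_7R-104, 2.73 for XUT_13F-261, 2.58 for XUT_2R-264, 2.20 for XUT_11R-274, 2.13 for XUT_4F-293, 1.97 for XUT_8F-22, 1.94 for XUT_5F-151, 1.92 for XUT_7R-20. It was 1.74 for XUT_5R-90-m, 1.70 for XUT_2R-85, 1.54 for XUT_10F-82, 1.51 for XUT_4R-336, 1.26 for XUT_9R-84, 0.81 for XUT_15R-7, 0.77 for XUT_10R-276, 0.73 for XUT_13R-73, 0.71 for XUT_4R-506. The call of XUT_11R-7 ended in 8 of 31 alternatives (edgeR or DESeq2 adjusted p 0.00981 to 0.0916) and that of XUT_10F-85 in 15 of 31 (0.0149 to 0.129), both of them also with the replicate number as a block within each strain (0.0545 and 0.0525). The difference was negative for 5 XUTs, at -1.30 for XUT_9R-104, -1.53 for XUT_15F-42, -1.56 for XUT_13F-5, -1.73 for XUT_10F-85, -1.76 for XUT_13R-177.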

How the results depend on the processing

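Total count scaling gave 707 higher and 4 lower antisense XUTs in dcp2-ideg beyond wt, 275 higher with no same-strand overlap, a median change of 1.32, and 585 higher and 4 lower against lsm1-ideg. Of all 11776 features it gave 4461 higher and 490 lower, and 3726 and 370 against lsm1-ideg. TMM factors from protein-coding genes gave 9 lower, 14 lower against lsm1-ideg and a median of 1.03. Of all features 1157 were then lower, and 971 against lsm1-ideg. The median was 0.88 over XUTs of at least 1 CPM, 0.66 with no same-strand overlap, 1.08 and 1.05 at 10% or more of the gene's count per base over all and over wt libraries, and 0.92 without dcp2-ideg T0 replicate 4 and wt T60 replicate 3, chosen after seeing the data like the split by wt. Without these 2 libraries 2 were higher in dcp2-ideg T0 than in wt T0. DESeq2 gave 7 higher and 1 lower in lsm1-ideg beyond wt, where 61 and 29 of 11775 features were called. It gave 7 higher and 8 lower in dcp2-ideg T0 against wt T0, where 109 and 46 of 11318 features were called. In lsm1-ideg T0 against wt T0 it gave 6 lower, where 33 of 11775 features were. The causes were not tested.

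Leaving out 1 library in turn gave 408 to 472 higher and 13 to 22 lower in dcp2-ideg beyond wt (133 to 159 higher with no same-strand overlap, medians 0.77 to 0.86), 324 to 392 and 18 to 28 against lsm1-ideg, 0 to 3 and 0 in lsm1-ideg, 1 to 3 and 1 to 4 in dcp2-ideg T0, 1 to 3 and 2 to 3 in lsm1-ideg T0, 0 in wt, and 268 to 367 and 11 to 19 for the ratio. Without 1 library the change of XUT_13F-14, not called, ran from -0.11 (without wt T0 replicate 3) to 0.87. Over all groups 15 of 60 same-number pairs had a correlation of deviations over 0.1, and 16 of 24 libraries correlated best with their own number. A replicate block over all groups gave 4 higher in lsm1-ideg and 5 lower in dcp2-ideg T0 against wt T0. Of all 11776 features 42 and 36 were called so. A replicate block within each strain, chosen after seeing the data, gave 506 higher and 24 lower in dcp2-ideg, 6 higher in lsm1-ideg, 34 lower in dcp2-ideg against lsm1-ideg and 28 lower for the ratio. Of all 11776 features it gave 2747 higher and 2499 lower in dcp2-ideg, 80 higher in lsm1-ideg and 2301 lower in dcp2-ideg against lsm1-ideg. Over named XUTs 1481 values kept their direction and their side of the threshold, 129 lost and 14 gained a call and 1 turned.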

Other observations

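CSS1, the gene opposite XUT_9F-4, varied within groups. The lsm1-ideg libraries held 42.4, 41.1, 10.9 and 9.66 CPM at T60, against 64.8, 64.7, 18.3 and 20.4 CPM at T0, in replicates 1 to 4. The dcp2-ideg libraries held 15.03, 16.7, 8.16 and 5.34 CPM at T60, against 24.6, 20.6, 13.4 and 8.82 CPM at T0. The wt libraries held 7.36, 9.33, 9.13 and 11.6 CPM at T60, against 8.48, 11.8, 11.8 and 12.5 CPM at T0. In both degron strains replicates 1 and 2 lay above replicates 3 and 4 at each time, and in wt they did not. These values were chosen after they were seen, and no difference was tested.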
